A study of Mus musculus with 9 samples.

Results

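Interferon regulatory factors (IRFs) are a family of transcription factors, and 8 of their genes, *Irf1*, *Irf2*, *Irf3*, *Irf4*, *Irf5*, *Irf7*, *Irf8* and *Irf9*, were examined in 3 mouse myeloid cell lines. They were chosen by symbol from the 54347 genes of the count table, and all 8 were among the 13082 genes tested for differences between lines. Poly-A RNA was sequenced from stranded libraries, 3 per line. Hox-WT and Hox-URE are hematopoietic progenitor lines made by immortalization with an estradiol-dependent Hoxb8 protein, from a wild-type mouse and from a UREd/d mouse. In UREd/d cells the upstream regulatory element (URE) that enhances *Spi1*, which encodes PU.1, is deleted. The URE-AML line, of acute myeloid leukemia (AML) blasts, has the same deletion. It held 0 counts of *Hoxb8*, while Hox-WT had 65.8 ± 4.07 CPM (counts per 1e6) of it and Hox-URE 132 ± 7.98 (SD, n = 3 each). Per the labels, all 3 lines were grown with 20% serum, 10 ng/ml of interleukin 3, interleukin 6 and stem cell factor, and 1 µM estradiol, for which the study's methods give another concentration. Each genotype and disease stage is represented by 1 line, so genotype, mouse and line cannot be told apart, and no source states whether the libraries of a line were separate cultures. The p-values therefore measure the spread between libraries, which may be technical.

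All IRF proteins bind DNA through a conserved N-terminal domain that recognizes GAAA repeats. IRF4 and IRF8 bind DNA weakly on their own and are recruited to composite elements by PU.1, and IRF8 directs progenitors towards monocytes and dendritic cells. IRF3, IRF5 and IRF7 are switched on by phosphorylation downstream of nucleic acid sensors and Toll-like receptors, IRF1 and IRF2 act as activator and mainly repressor on shared sites, and IRF9 joins STAT2 in the complex ISGF3 that carries the type I interferon signal.

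CPM were taken relative to library totals corrected by TMM factors. Totals were 20331064 to 28588718 counts, and a floor of 3 counts stood at 0.104 to 0.153 CPM, which covers counting error only. A gene was called at an edgeR adjusted p under 0.05 together with a fold change over 1.5. The level of *Spi1* itself was 103 ± 6.79 CPM in Hox-WT (SD, n = 3), with 1, 1 and 0 counts in the Hox-URE libraries and 2.50, 5.52 and 6.35 CPM in URE-AML libraries 1 to 3. The labels name Hox-WT and Hox-URE progenitors and URE-AML blast-like cells. Of 8 myeloid progenitor markers, 8 were at 1 CPM or more in Hox-WT and in Hox-URE and 7 in URE-AML, where *Cd34* had 0.0135 CPM. Their levels were unlike: 7 of the 8 were called lower in Hox-URE against Hox-WT, with 15.9% of all genes. *Mpo* averaged 5042, 5.04 and 192 CPM and *Elane* 181, 9.29 and 7311 CPM in Hox-WT, Hox-URE and then URE-AML. In URE-AML against Hox-WT 3 markers were called higher and 5 lower, with 23% and 20.2% of all genes, and the part of these markers in the IRF results was not tested. Markers of dendritic cells and lymphocytes, which use IRF4 and IRF8 heavily, were low. The summed level of 10 dendritic cell markers was 0.242 to 0.525 CPM in Hox-WT, 24.0 to 31.0 in Hox-URE, of which *H2-Ab1* made up 28.3 on average, and 0 to 0.202 in URE-AML, with *Siglech*, *Clec9a*, *Ccr9* and *Cd209a* at 0 in all 9 libraries. The sum of 10 lymphoid markers was at most 3.77 CPM in any library, with *Cd3e*, *Cd3g*, *Cd8a*, *Ms4a1* and *Ncr1* at 0 throughout.

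Each line had its own set of IRF transcripts. Hox-WT had *Irf5* and *Irf8* and no count of *Irf4*. Hox-URE had only traces of *Irf5* and *Irf8*, and again no count of *Irf4*, and held the highest mean level of *Irf9*. URE-AML had *Irf4* and *Irf8* with almost no *Irf5*, the highest mean level of *Irf1* and the lowest of *Irf9*. *Irf2*, *Irf3* and *Irf7* were not called in any comparison of lines. The comparisons share lines and so are not independent of each other.

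**Figure D1:**
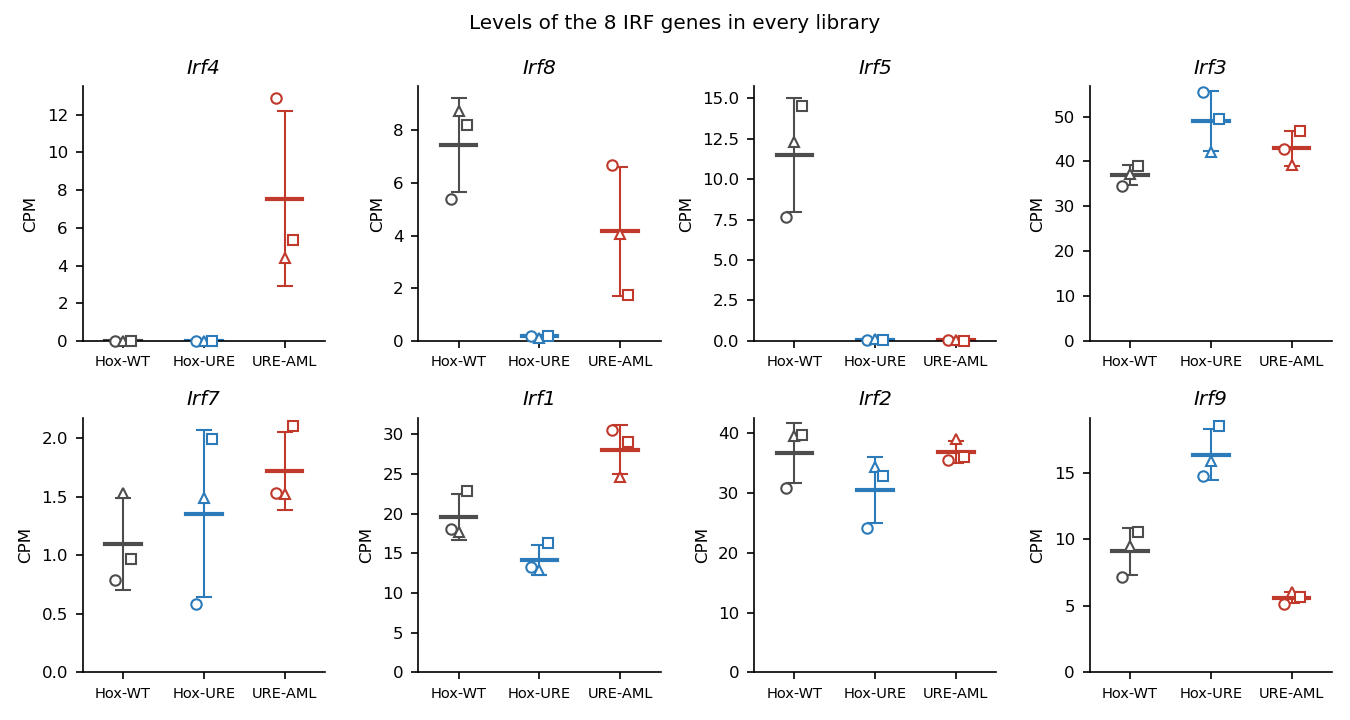
Level of each IRF gene in CPM (vertical axis, its own scale in each panel, starting at 0) in the 3 libraries of each line; circles, triangles and squares are libraries 1, 2 and 3, the thick bar is the mean and the thin bar the SD, cut at 0. *Irf4* is above 0 in the URE-AML libraries only (4.42 to 12.9 CPM), and *Irf5* is above 0.2 CPM in the Hox-WT libraries only (7.65 to 14.5 CPM).

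The PU.1 partners *Irf4* and *Irf8* are described first. *Irf4* (ENSMUSG00000021356, chr13:30749226-30766976 of GRCm38, plus strand), which encodes a factor of lymphocytes and alternatively activated macrophages, had 319, 93 and 125 counts in URE-AML libraries 1 to 3, or 12.9, 4.42 and 5.36 CPM (mean 7.56 ± 4.64, SD, n = 3). It had 0 counts in each of the 6 Hox-WT and Hox-URE libraries, so the groups did not overlap. Its level in URE-AML was at least 70.1-fold higher than in Hox-WT (adjusted p by edgeR = 0.000216) and at least 58.6-fold higher than in Hox-URE (adjusted p by edgeR = 0.000258), from the floor of 3 counts per library. *Irf4* was called under each alternative in which it was tested, and it is untested where 10 counts are asked of every library.

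*Irf8* (ENSMUSG00000041515, chr8:120736358-120756694, plus strand), the monocyte and dendritic cell determinant, had 5.40, 8.71 and 8.20 CPM in Hox-WT (7.44 ± 1.78, SD, n = 3). In Hox-URE, 5, 3 and 4 counts were found (0.170 ± 0.0413 CPM), and URE-AML had 6.66, 4.04 and 1.76 CPM (4.16 ± 2.45). The Hox-URE libraries lay below those of both other lines, while Hox-WT and URE-AML overlapped. *Irf8* fell in Hox-URE against Hox-WT with a log2 fold change of -5.42 ± 0.56 (± SE, adjusted p by edgeR = 2.64e-05), and URE-AML exceeded Hox-URE by 4.58 ± 0.56 (± SE, adjusted p by edgeR = 6.49e-05). URE-AML against Hox-WT gave -0.84 ± 0.40 (± SE, adjusted p by edgeR = 0.0994), which was not called. Without URE-AML library 1 the value was -1.36 (adjusted p by edgeR = 0.0146) and was called.

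URE-AML library 1 was the highest of its line for *Irf4* and *Irf8* and the lowest for *Spi1*. The coefficient of variation between the 3 URE-AML libraries was 61.4% for *Irf4*, 59.1% for *Irf8* and 42.2% for *Spi1*. Whether the cultures differed was not tested. In bulk RNA, fewer cells with a transcript and fewer copies per cell cannot be told apart, so these values do not show whether *Irf4* and *Irf8* were in the same cells.

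The balance of both partners was also measured within each library, where scaling plays no part. The log2 ratio of *Irf8* to *Irf4* counts, each plus 0.5, was -0.95, -0.13 and -1.60 in URE-AML libraries 1 to 3, so *Irf4* had more counts than *Irf8* in all 3. Counts are not corrected for length. Per kb of exon, *Irf4* and *Irf8* had 2.63 and 0.945, 0.902 and 0.573, and 1.09 and 0.249 CPM per kb in libraries 1 to 3, with *Irf4* higher in each, while per kb of longest coding transcript *Irf8* was higher in library 2 (1.42 against 0.929). The log2 ratio of counts was 8.67 ± 0.43 in Hox-WT and 3.15 ± 0.33 in Hox-URE (SD, n = 3 each), where *Irf4* was at 0 and the ratio depends on the offset. URE-AML differed from Hox-WT by -9.56 and from Hox-URE by -4.04, values that depend on the offset as well. Both had an exact permutation p of 0.1 (two-sided, adjusted p = 0.12 over 6 ratio tests), which is the smallest that 3 libraries against 3 allow.

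The promoters of these PU.1 partners, which both differed between the UREd/d lines, are shown. *Irf1* and *Irf9* differed between those lines as well, and the *Irf9* promoter is not shown. Each sequence is the 250 bases before the RefSeq start (GRCm38.p6), for *Irf4* at chr13:30748983-30749232 and for *Irf8* at chr8:120736108-120736357, both on the plus strand, and capitals mark matches to 4 motifs searched on both strands.
Irf4: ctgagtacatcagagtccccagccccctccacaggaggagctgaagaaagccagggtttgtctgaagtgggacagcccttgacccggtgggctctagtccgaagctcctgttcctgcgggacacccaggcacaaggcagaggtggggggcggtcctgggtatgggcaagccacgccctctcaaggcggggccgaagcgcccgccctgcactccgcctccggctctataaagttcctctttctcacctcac
Irf8: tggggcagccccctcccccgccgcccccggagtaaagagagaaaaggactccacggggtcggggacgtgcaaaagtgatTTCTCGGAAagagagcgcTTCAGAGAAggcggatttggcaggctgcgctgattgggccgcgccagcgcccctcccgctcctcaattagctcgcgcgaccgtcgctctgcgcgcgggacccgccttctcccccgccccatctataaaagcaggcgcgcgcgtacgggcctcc
The motifs were the interferon-stimulated response element (ISRE), a pair of GAAA sites 2 bases apart, the composite PU.1-IRF element (EICE), GGAA followed after 2 bases by GAAA, the STAT site (GAS) TTCNNNGAA and a PU.1 core site GAGGAAGT. Of 32851 promoter windows of this length, 2.98% held an ISRE, 2.3% an EICE, 7.02% a GAS and 2.44% the PU.1 core. The *Irf8* window shown held 2 GAS matches, TTCTCGGAA starting 171 bases and TTCAGAGAA starting 153 bases before the start. The other *Irf8* window (chr8:120738389-120738638), before a RefSeq start 2281 bases downstream of the annotated gene start, held none of the 4. The *Irf4* window held none of the 4. All 8 genes had an entry, with 11 windows in all, and *Irf3*, *Irf5*, *Irf7* and *Irf9* had no match either. Both *Irf9* windows belong to RefSeq starts 414 and 1008 bases inside the annotated gene, so the bases before its annotated start were not searched. A match describes letters in this window only, and enhancers were not searched.

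Among the factors that Toll-like receptors and nucleic acid sensors switch on, *Irf5* set Hox-WT apart. *Irf5* (ENSMUSG00000029771, chr6:29526625-29541871, plus strand), which drives inflammatory cytokine genes downstream of MyD88, had 7.65, 12.3 and 14.5 CPM in Hox-WT (11.5 ± 3.51, SD, n = 3). It had 2, 3 and 1 counts in Hox-URE and 1, 1 and 0 counts in URE-AML. Both UREd/d lines were thus at or under the floor in every library, and far below every Hox-WT library. By summed counts the level in Hox-URE was 137-fold below that of Hox-WT, with a 95% counting interval of 62.9 to 375 (adjusted p by edgeR = 9.22e-07). In URE-AML it was 400-fold lower than in Hox-WT, with an interval of 110 to 3308 (adjusted p by edgeR = 3.57e-07). The exons of *Irf5* share 411 bases with *Tnpo3* on the opposite strand, and *Tnpo3* had 118 ± 8.70 CPM (SD, n = 3) in Hox-URE and 155 ± 11.1 in URE-AML, where *Irf5* was near 0.

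The promoter of *Irf5* (chr6:29526375-29526624, plus strand, same source and length as above), shown as that of the IRF gene with the largest fall against Hox-WT in each UREd/d line, held none of the 4 motifs.
Irf5: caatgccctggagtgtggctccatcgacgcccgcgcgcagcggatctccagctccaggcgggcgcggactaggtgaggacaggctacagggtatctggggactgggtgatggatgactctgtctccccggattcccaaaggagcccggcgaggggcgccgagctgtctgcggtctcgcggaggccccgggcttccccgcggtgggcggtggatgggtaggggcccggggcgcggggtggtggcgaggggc

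*Irf3* (ENSMUSG00000003184, chr7:44997648-45002848, plus strand), the constitutively present factor that induces interferon beta, had 34.6, 37.3 and 39.0 CPM in Hox-WT. Hox-URE had 55.6, 42.1 and 49.4 CPM, and URE-AML 42.9, 39.2 and 46.9. Each of these libraries was above all Hox-WT libraries, and the 2 UREd/d lines overlapped. In Hox-URE against Hox-WT the log2 fold change was 0.41 ± 0.12 (± SE, adjusted p by edgeR = 0.0162), short of 1.5-fold and not called. In the other comparisons the adjusted p was at least 0.148. *Irf3* shares 88 exon bases with *Bcl2l12* on the opposite strand.

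*Irf7* (ENSMUSG00000025498, chr7:141262706-141266481, minus strand), an interferon-induced amplifier of interferon alpha genes, was low in every line. It had 0.787, 1.54 and 0.969 CPM in Hox-WT, 0.583, 1.49 and 1.99 in Hox-URE and 1.53, 1.52 and 2.10 in URE-AML. All 3 lines overlapped, and the log2 fold changes of 0.29 ± 0.45, 0.65 ± 0.45 and 0.36 ± 0.45 (± SE) had adjusted p by edgeR of 0.624, 0.242 and 0.518, in the order Hox-URE against Hox-WT, URE-AML against Hox-WT and URE-AML against Hox-URE. With 16 to 49 counts per library, these data cannot resolve a change of about 1.5-fold.

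*Irf1* (ENSMUSG00000018899, chr11:53770014-53778374, plus strand), an interferon gamma-induced activator, had 18.1, 17.6 and 22.8 CPM in Hox-WT (19.5 ± 2.88, SD, n = 3). Hox-URE had 13.2, 12.9 and 16.3 CPM (14.2 ± 1.90), and URE-AML 30.5, 24.5 and 29.0 (28.0 ± 3.11). The 3 lines did not overlap. *Irf1* was called higher in the comparison of URE-AML with Hox-URE, with a log2 fold change of 0.99 ± 0.15 (± SE, adjusted p by edgeR = 0.000267). Against Hox-WT, the values of -0.46 ± 0.15 in Hox-URE (± SE, adjusted p by edgeR = 0.0234) and 0.52 ± 0.15 in URE-AML (± SE, adjusted p by edgeR = 0.0113) passed 0.05 but not 1.5-fold. The first was called without Hox-URE library 3 (-0.59), and the second without URE-AML library 2 (0.61) or Hox-WT library 3 (0.64).

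*Irf2* (ENSMUSG00000031627, chr8:46739732-46847458, plus strand), the counterpart that mainly represses IRF1 sites, had 30.8, 39.6 and 39.6 CPM in Hox-WT, 24.2, 34.3 and 32.9 in Hox-URE and 35.5, 39.0 and 36.0 in URE-AML. Hox-WT overlapped with both other lines, and the URE-AML libraries lay above those of Hox-URE. *Irf2* was not called in any comparison. Its log2 fold changes were -0.27 ± 0.15, 0.01 ± 0.15 and 0.27 ± 0.15 (± SE, adjusted p by edgeR = 0.157, 0.983 and 0.143), in the same order of comparisons. The log2 ratio of *Irf1* to *Irf2* within a library was -0.91 ± 0.22 for Hox-WT, -1.10 ± 0.28 for Hox-URE and -0.40 ± 0.24 for URE-AML (SD, n = 3 each). All 3 URE-AML libraries were above every library of the Hox lines, by 0.51 against Hox-WT and 0.70 against Hox-URE on average (exact two-sided permutation p = 0.1 in both, adjusted p = 0.12), while Hox-WT and Hox-URE overlapped (difference -0.19, exact permutation p = 0.5). Taken by library number, Hox-URE differed from Hox-WT by -0.10, -0.24 and -0.21, below 0 in all 3 pairs (exact sign-flip p = 0.25, the smallest that 3 pairs allow).

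The promoters of *Irf1* (chr11:53769764-53770013) and *Irf2* (chr8:46739495-46739744), both on the plus strand, are shown because they held motifs of the interferon pathway.
Irf1: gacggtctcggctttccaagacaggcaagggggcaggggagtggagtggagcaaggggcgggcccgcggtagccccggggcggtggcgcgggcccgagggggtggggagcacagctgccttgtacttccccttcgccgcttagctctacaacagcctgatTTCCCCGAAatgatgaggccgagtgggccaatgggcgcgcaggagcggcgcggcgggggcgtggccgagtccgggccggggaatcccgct
Irf2: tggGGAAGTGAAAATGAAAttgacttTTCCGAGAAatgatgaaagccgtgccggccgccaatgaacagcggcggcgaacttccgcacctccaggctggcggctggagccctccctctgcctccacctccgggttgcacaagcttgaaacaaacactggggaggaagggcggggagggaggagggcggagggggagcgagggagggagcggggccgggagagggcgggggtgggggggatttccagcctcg
*Irf1* had a GAS, TTCCCCGAA, starting 90 bases before the start. The other *Irf1* window (chr11:53770223-53770472), before a RefSeq start 459 bases downstream of the annotated gene start, had no match. *Irf2* had an EICE, an ISRE that overlaps it, and a GAS, starting 247, 241 and 224 bases before the start.

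*Irf9* (ENSMUSG00000002325, chr14:55603571-55610030, plus strand), the DNA-binding part of ISGF3, had 7.16, 9.54 and 10.6 CPM in Hox-WT (9.09 ± 1.75, SD, n = 3). Hox-URE had 14.7, 15.9 and 18.5 CPM (16.4 ± 1.92), and URE-AML 5.17, 6.04 and 5.66 (5.63 ± 0.437). The 3 lines did not overlap, and *Irf9* was the one member called in all 3 comparisons. It rose in Hox-URE against Hox-WT by 0.85 ± 0.17 on the log2 scale (± SE, adjusted p by edgeR = 0.00195). URE-AML had -0.69 ± 0.17 against Hox-WT (± SE, adjusted p by edgeR = 0.00621) and -1.54 ± 0.18 against Hox-URE (± SE, adjusted p by edgeR = 3.79e-05). Tested against a fold change of 1.5, the first 2 were not called (adjusted p = 0.0826 and 0.265, edgeR), and without Hox-WT library 3 the second was -0.58, short of 1.5-fold. *Irf9* shares 123 of its exon bases with *Rnf31* on the same strand, so reads there can be split between both genes. *Rnf31* had mean levels of 32.6 CPM for Hox-WT, 35.6 for Hox-URE and 28.4 for URE-AML, and it was not called.

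**Figure D2:**
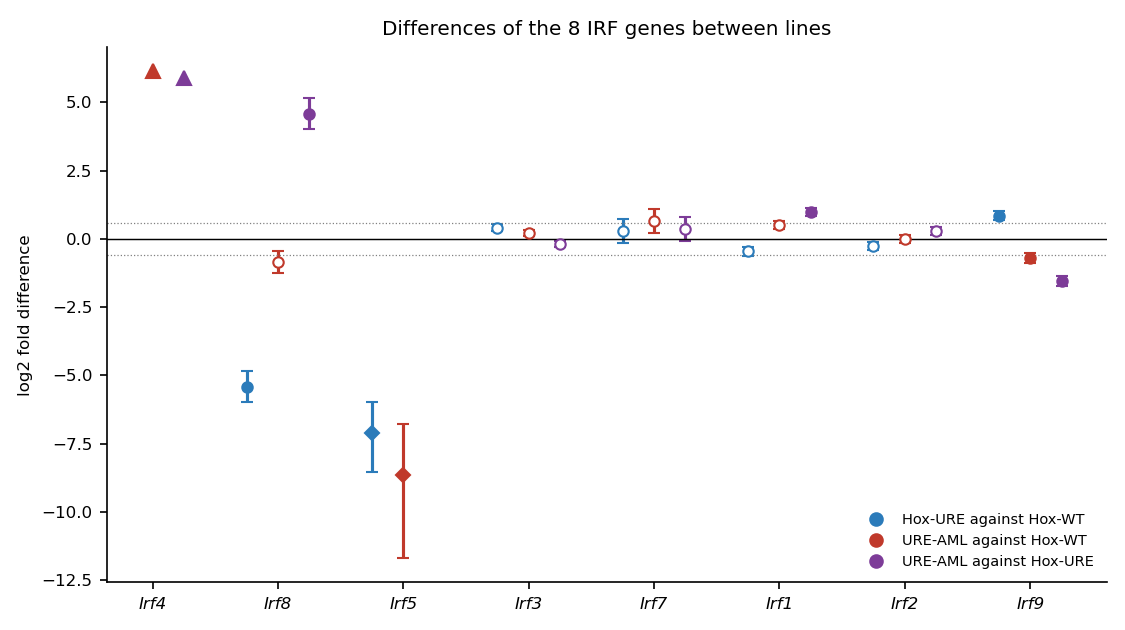
Log2 fold difference of each IRF gene (vertical axis) in Hox-URE against Hox-WT, URE-AML against Hox-WT and URE-AML against Hox-URE; filled circles are called and open circles not called genes with the SE of the edgeR fit, triangles are lower bounds from the floor of 3 counts, diamonds are ratios of summed counts with their 95% counting interval, and dotted lines mark 1.5-fold. *Irf4*, *Irf5* and *Irf8* have the largest differences, and pairs of lines with both at or under the floor are not drawn.

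Counted together, 3 members were called in Hox-URE against Hox-WT, where 37.2% of the 13082 tested genes were. *Irf4*, at 0 in both lines, had no value there, which leaves 3 of 7 (42.9%). *Irf9* was higher, and *Irf5* and *Irf8* were lower. In URE-AML against Hox-WT 3 of 8 members were called (37.5%, with 43.2% of all genes), *Irf4* higher and *Irf5* and *Irf9* lower. In URE-AML against Hox-URE 4 of the 7 members above the floor in either line were called (57.1%, with 42.7% of all genes), *Irf1*, *Irf4* and *Irf8* higher and *Irf9* lower. The libraries of the compared lines did not overlap for 5, 5 and 6 of the 8 members in that order, and for 60.3%, 67.6% and 62.8% of all tested genes. The 6 include *Irf5*, which was at or under the floor in both lines of that comparison. Over the members with a value, the median log2 fold change was -0.27, 0.11 and 0.36, against 0.00 for all genes in each comparison. With so few members these counts are not a result about the family. With library size as the only scaling, the median of all genes moved by 0.11 in URE-AML against Hox-URE, and the same 4 members were called. The share of all calls that were higher then went from 47.6% to 54.9% in that comparison and from 57.2% to 49.6% in Hox-URE against Hox-WT, which bears on the shares of all genes by direction given with the lists.

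The order of the members by level was compared per kilobase of annotated exon. *Irf3* came first in every line, with 10.7 ± 0.648 CPM per kb for Hox-WT, 14.2 ± 1.96 for Hox-URE and 12.5 ± 1.13 for URE-AML (SD, n = 3 each), or 39.2%, 56.1% and 44.4% of the summed level of the 8 genes. In Hox-WT, *Irf2*, *Irf1* and *Irf5* followed with 4.96, 4.91 and 3.95 CPM per kb and overlapped as neighbours, and then *Irf9* (1.69), *Irf8* (1.05), *Irf7* (0.291) and *Irf4* (0). In Hox-URE, *Irf2*, *Irf1* and *Irf9* were next with overlapping 4.12, 3.56 and 3.04 CPM per kb, *Irf7* had 0.359, and *Irf5* and *Irf8* overlapped at 0.0285 and 0.0241. In URE-AML, *Irf1* (7.05) stood above *Irf2* (4.98), then *Irf4* (1.54) and *Irf9* (1.04) overlapped, as did *Irf8* (0.589) and *Irf7* (0.455), and *Irf5* came last (0.0101). The sum over the 8 genes was 27.6 ± 3.61, 25.4 ± 1.72 and 28.2 ± 2.09 CPM per kb (SD, n = 3 each), and the 3 lines overlapped. With the longest coding transcript as the length, *Irf3* still came first in each line, at 34.3%, 49.1% and 38.6% of the sum. In that setting, chosen after seeing the data, *Irf2* ranked above *Irf1* in every line, but the 2 genes overlapped in URE-AML.

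**Figure D3:**
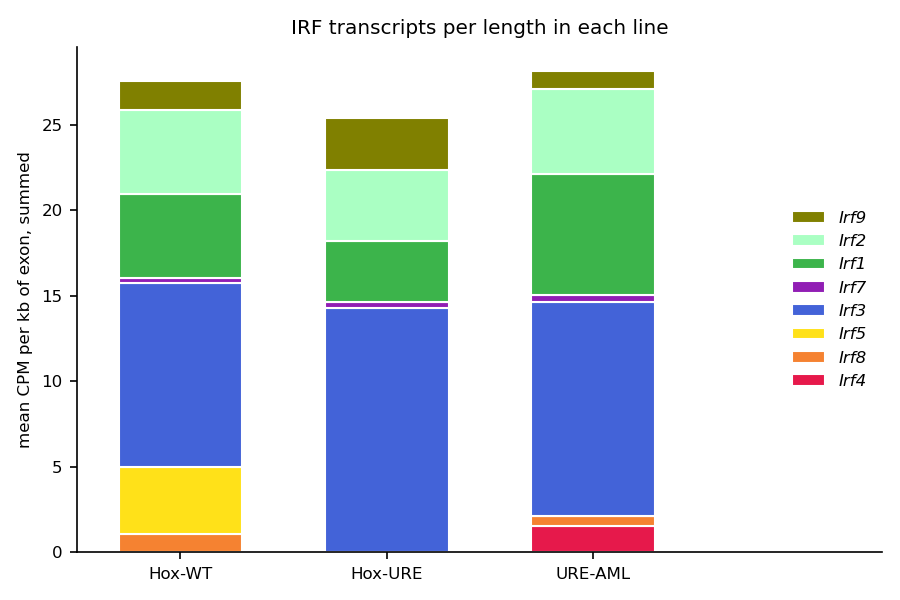
Mean level of the IRF genes per kilobase of exon (vertical axis, CPM per kb, starting at 0), stacked for each line. *Irf3* is the largest block in all 3 bars, *Irf5* is seen in Hox-WT and *Irf4* in URE-AML, and the *Irf5* and *Irf8* blocks of Hox-URE are too thin to see.

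Genes with the pattern most like that of *Irf4* and *Irf8* over the 9 libraries were found by the root mean square distance of mean-centred log2 CPM. The 5 nearest to *Irf4* were *Cxcl14*, *Fst*, *Lef1*, *Fzd1* and *Klf5*, at distances of 0.239 to 0.366, all with 0 counts in both Hox lines and 5.24 to 10.1 CPM on average in URE-AML. The 5 nearest to *Irf8* were *Nhsl1*, *Ppp1r9a*, *Il6ra*, *Il12rb2* and *Dse*, at 0.277 to 0.514. *Il6ra*, the interleukin 6 receptor, averaged 3.94 CPM for Hox-WT, 0.0292 for Hox-URE and 2.26 for URE-AML.

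IRF proteins act with partners and cofactors, of which 12 genes were listed and 9 tested. Of these 9, 2 were called lower (15.9% of all genes) and 0 higher (21.3% of all genes) in Hox-URE against Hox-WT. In the edgeR test 2 were higher at an unadjusted p under 0.05, and DESeq2 also called 0 higher. The lower genes were *Spi1*, described above, and *Batf2*, an AP-1 family partner of IRF1, with a log2 fold change of -2.16 ± 0.49 (± SE, adjusted p by edgeR = 0.00411). In URE-AML against Hox-WT *Spi1* was the one gene called (11.1%, against 43.2% of all genes), lower by -4.42 ± 0.28 (± SE, adjusted p by edgeR = 4.53e-07). There too 0 were called higher by edgeR and by DESeq2, with 2 at an unadjusted p under 0.05. In URE-AML against Hox-URE 3 were called higher (33.3%, against 42.7% of all genes called and 20.3% called higher). None (0) was called lower by edgeR or DESeq2, and 1 lower gene had an unadjusted p under 0.05 in edgeR. They were *Spi1*, the coactivator *Crebbp* (0.81 ± 0.28, SE, adjusted p by edgeR = 0.0288) and the IRF2 corepressor *Irf2bp2* (0.60 ± 0.14, SE, adjusted p by edgeR = 0.00472). These small counts turned on single libraries. Without Hox-URE library 3 the first count was 4, and without Hox-WT library 1 the second was 3. Without any other library of Hox-WT or URE-AML the second was 2. Without URE-AML library 1 or 3 the last was 1.

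The interferons, of which the type I genes are targets of IRF3 and IRF7, were not detected. All 12 interferon genes listed, among them *Ifnb1*, *Ifna4*, *Ifnl2* and *Ifng*, had 0 counts in all 9 libraries, which allows up to 0.104 to 0.153 CPM per library.

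The receptors and the JAK-STAT relay through which interferons induce *Irf1*, *Irf7* and *Irf9* were mostly transcribed: of 13 genes, all tested, 11 were at 1 CPM or more in Hox-WT and in URE-AML, and 12 in Hox-URE. The lambda receptor chain *Ifnlr1* was low in every line, with 2, 4 and 15 counts in Hox-WT, 5, 12 and 9 in Hox-URE and 4, 2 and 2 in URE-AML. In Hox-URE against Hox-WT 7 were called higher and 3 lower, with 21.3% and 15.9% of all genes, and the median log2 fold change was 0.65. The interferon gamma receptor chains *Ifngr2* and *Ifngr1* fell by 1.80 ± 0.23 and 1.43 ± 0.12 on the log2 scale (± SE, adjusted p by edgeR = 0.000116 and 4.66e-06). The feedback inhibitors *Usp18*, which acts on the type I receptor, and *Socs3* rose by 4.17 ± 0.29 and 2.91 ± 0.18 (log2 ± SE, adjusted p by edgeR = 1.42e-06 and 7.25e-07). *Stat2*, whose product pairs with IRF9 in ISGF3, rose in Hox-URE together with *Irf9*, by 0.96 ± 0.17 (log2 ± SE, adjusted p by edgeR = 0.000947).

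URE-AML had 6 of the 13 genes above Hox-WT and 2 below it, with 23% and 20.2% of all genes, and the median was 0.31. *Ifngr1* went the other way from Hox-URE. It had 335, 373 and 390 CPM in URE-AML, against 43.7, 47.3 and 39.8 in Hox-WT and 16.7, 17.7 and 13.9 in Hox-URE. This made it higher in URE-AML than in Hox-WT by 3.07 ± 0.12 and than in Hox-URE by 4.50 ± 0.13 (log2 ± SE, adjusted p by edgeR = 1.5e-08 and 3.5e-09). *Socs3* was higher than in Hox-WT by 3.87 ± 0.19 (log2 ± SE, adjusted p by edgeR = 5.92e-08), and *Usp18* and the type I receptor chain *Ifnar1* were lower by -1.37 ± 0.37 and -0.69 ± 0.16 (log2 ± SE, adjusted p by edgeR = 0.00914 and 0.00382). In URE-AML, *Stat2* was called higher than in Hox-WT while *Irf9* was lower. The log2 fold change of *Stat2* was 1.46 ± 0.17 (± SE, adjusted p by edgeR = 4.21e-05). In URE-AML against Hox-URE 3 were higher and 2 lower, with 20.3% and 22.4% of all genes, and the median was 0.06. *Ifngr2* was higher by 1.37 ± 0.23, and *Usp18* and *Jak2* had -5.54 ± 0.33 and -0.90 ± 0.12 (log2 ± SE, adjusted p by edgeR = 0.000534, 3.19e-07 and 0.000131).

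Upstream of IRF3, IRF5 and IRF7, 19 of 21 sensors, adaptors and kinases were tested. In Hox-URE against Hox-WT 3 were called higher and 5 lower (42.1%, against 37.2% of all genes), and the median log2 fold change was -0.22. Without Hox-WT library 1 the count called was 5 instead of 8. The RNA sensor *Ddx58* and the TLR adaptor *Ticam1* rose by 1.80 ± 0.23 and 0.66 ± 0.16. The RNA sensor regulator *Dhx58* and *Unc93b1*, which carries the nucleic acid-sensing Toll-like receptors to endosomes, fell by 3.19 ± 0.45 and 2.64 ± 0.32 (log2 ± SE, adjusted p by edgeR = 9.88e-05, 0.00492, 0.000218 and 7.36e-05).

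Against Hox-WT, URE-AML had 4 of the 19 genes higher and 5 lower (47.4%, against 43.2% of all genes), and the median was -0.07. *Tlr7*, the endosomal receptor for single-stranded RNA that signals to IRF5 and IRF7, had 41.6, 24.8 and 25.0 CPM in the URE-AML libraries. It had 3, 1 and 2 counts in Hox-WT and 1, 0 and 0 in Hox-URE. This put *Tlr7* in URE-AML 430-fold above Hox-WT (95% counting interval 197 to 1173, adjusted p by edgeR = 4.67e-08). *Ikbke*, a kinase that phosphorylates IRF3 and IRF7, was higher by 3.09 ± 0.18 (log2 ± SE, adjusted p by edgeR = 2.93e-07). *Sting1*, the adaptor of cytosolic DNA sensing, and *Unc93b1* were lower by -2.74 ± 0.21 and -2.52 ± 0.31 (log2 ± SE, adjusted p by edgeR = 1.93e-06 and 6.91e-05). Thus URE-AML had *Tlr7* with almost no *Irf5*. *Unc93b1* had 2.73 ± 0.661 CPM there and 2.51 ± 1.11 in Hox-URE (SD, n = 3 each), and these lines overlapped. In URE-AML against Hox-URE 5 were higher and 4 lower (47.4%, against 42.7% of all genes), with a median of 0.12. The shares called in this list were near those of all genes. *Tlr7* led the higher genes, *Dhx58* was higher by 2.74 ± 0.45, and *Sting1* and the RNA-sensing adaptor *Mavs* were lower by -1.70 ± 0.21 and -0.95 ± 0.09 (log2 ± SE, adjusted p by edgeR = 0.000469, 5.81e-05 and 1.5e-05).

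**Figure D4:**
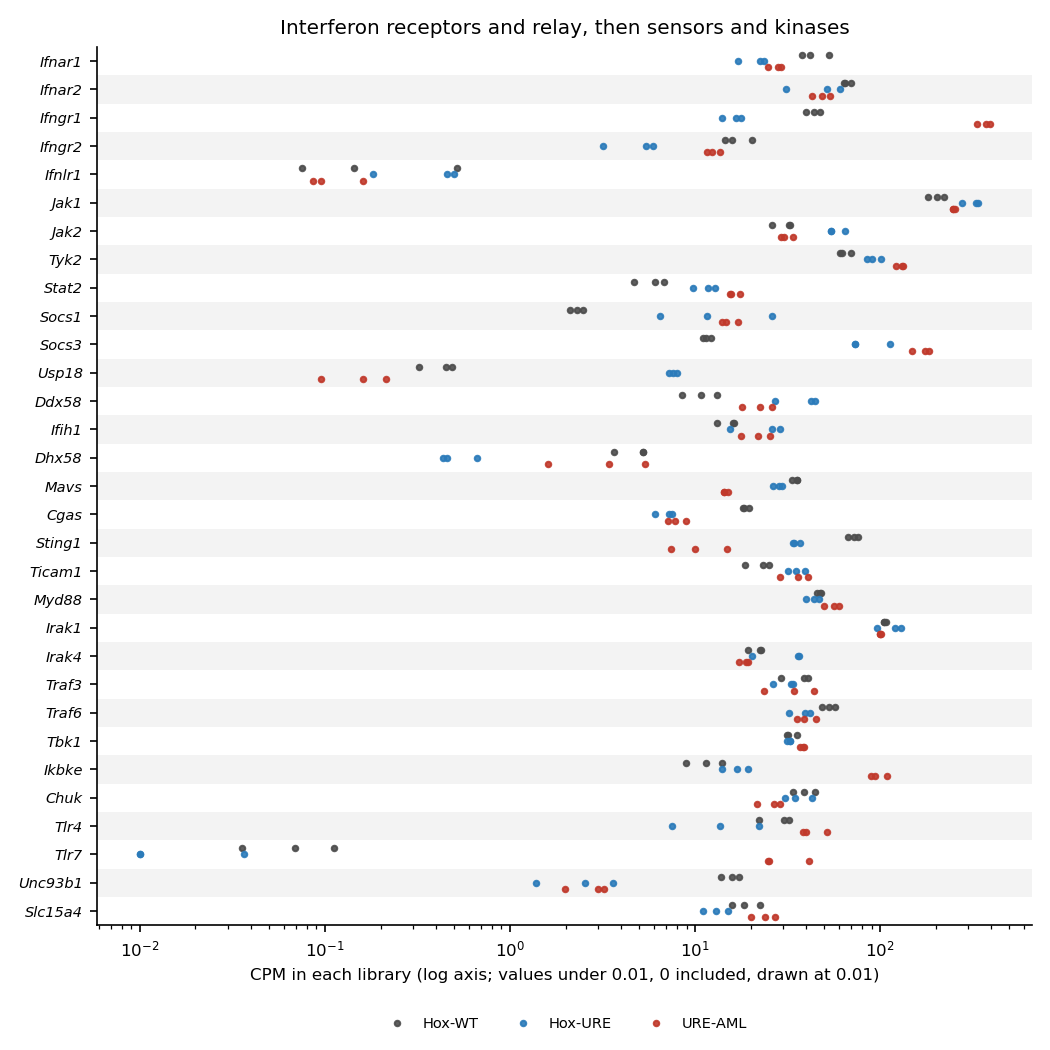
CPM in each library (horizontal log axis, values under 0.01 drawn at 0.01) of the tested interferon receptor and relay genes (*Ifnar1* to *Usp18*) and of the tested sensors, adaptors and kinases (*Ddx58* to *Slc15a4*), coloured by line, without a gene that is not reported here. *Ifngr1*, *Ikbke* and *Tlr7* stand higher in URE-AML, and *Usp18* in Hox-URE.

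Of 41 interferon-stimulated genes, many of them direct targets of ISGF3 or IRF1, 30 were tested and the directions were mixed in each comparison. In Hox-URE against Hox-WT 8 were called higher and 7 lower, where 21.3% and 15.9% of all genes were, and the median log2 fold change was 0.09. The MHC class II activator *Ciita*, with 0, 2 and 4 counts in Hox-WT, and the nuclease *Isg20* rose by 3.47 ± 0.63 and 2.38 ± 0.51, and the chemokine *Cxcl10* and the nucleotide kinase *Cmpk2* fell by 2.03 ± 0.75 and 1.80 ± 0.35 (log2 ± SE, adjusted p by edgeR = 0.00107, 0.00298, 0.0437 and 0.00173). The *Cxcl10* counts behind this were 12, 4 and 14 in Hox-WT and 4, 0 and 2 in Hox-URE.

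URE-AML had 9 of the 30 called higher and 8 lower against Hox-WT (median 0.16), with 23% and 20.2% of all genes. Against Hox-URE 10 were higher and 8 lower (median 0.11), with 20.3% and 22.4% of all genes. *Cxcl10* had 17.8, 10.8 and 10.2 CPM in URE-AML, and was higher than in Hox-WT by 5.15 ± 0.49 and than in Hox-URE by 7.18 ± 0.60 (log2 ± SE, adjusted p by edgeR = 8.98e-06 and 3.84e-06). The interferon-inducible GTPase *Iigp1* had 4.48, 3.33 and 2.06 CPM in URE-AML and at most 2 counts in any Hox-WT library, which made it 92.4-fold higher (95% counting interval 31.2 to 451, adjusted p by edgeR = 7.89e-05). With 0 counts in Hox-URE it was at least 25.5-fold higher there (adjusted p by edgeR = 5.7e-05). The receptor chaperone *Rtp4* had 0 counts in the URE-AML libraries. The line was thus at least 51.8-fold lower than Hox-WT and at least 24.2-fold lower than Hox-URE (adjusted p by edgeR = 1.14e-06 and 3.48e-06). *Nlrc5*, the MHC class I transactivator, was lower by -2.62 ± 0.17 and -3.11 ± 0.17 (log2 ± SE, adjusted p by edgeR = 4.55e-07 and 1.61e-07).

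**Figure D5:**
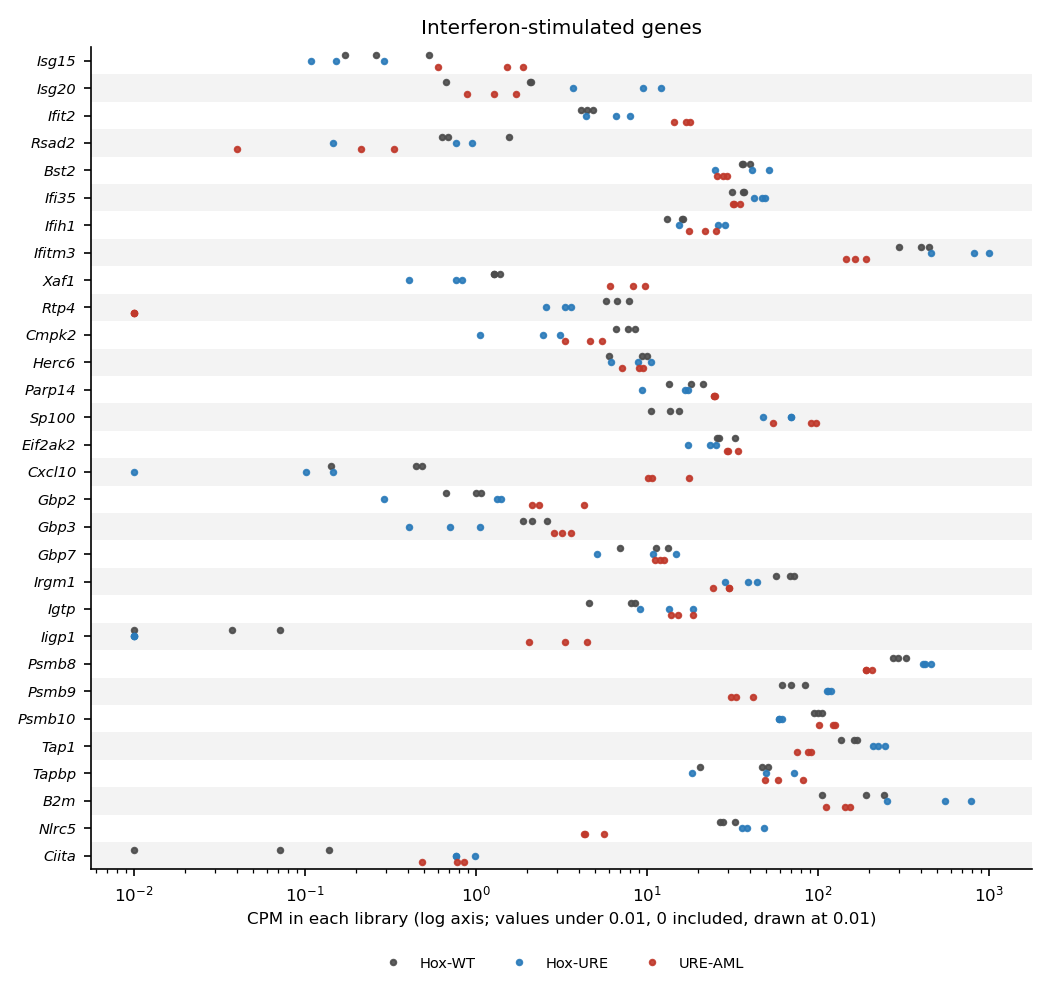
CPM in each library (horizontal log axis, values under 0.01, 0 included, drawn at 0.01) of the 30 tested interferon-stimulated genes, coloured by line. *Cxcl10* and *Iigp1* stand higher and *Rtp4* and *Nlrc5* lower in URE-AML than in both Hox lines, and most other genes differ less.

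Reported targets of IRF8 and of PU.1-IRF complexes were 18 genes, of which 14 were tested. In Hox-URE, where both *Spi1* and *Irf8* were near 0, 4 were called higher and 5 lower than in Hox-WT, with 21.3% and 15.9% of all genes and a median log2 fold change of -0.37. The NADPH oxidase gene *Cybb* and the receptor gene *Csf1r* had 0 counts in Hox-URE and were lower by at least 6.19-fold for *Cybb* and 6.07-fold for *Csf1r* (adjusted p by edgeR = 0.000161 and 0.000463). *Prdm1* fell by 4.81 ± 0.49, and the chemokine receptor *Ccr2* and the cell cycle inhibitor *Cdkn2b* rose by 6.13 ± 0.20 and 5.40 ± 0.42 (log2 ± SE, adjusted p by edgeR = 2.39e-05, 1.46e-08 and 3.62e-06). *Ccr2* had 840, 939 and 877 CPM in the Hox-URE libraries. The protease gene *Ctsc*, reported as IRF8-dependent in myeloid cells, also rose, from 126 ± 13.8 to 235 ± 44.7 CPM (SD, n = 3 each), by 0.90 ± 0.15 (log2 ± SE, adjusted p by edgeR = 0.000673).

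Against Hox-WT, 2 of the 14 genes were higher and 7 lower in URE-AML, with 23% and 20.2% of all genes, and the median was -1.21. *Irf8* had -0.84 there, as described above. *Ctsc* had -7.69 ± 0.23 and *Prdm1* was 398-fold lower with 1 count in the line (95% counting interval 71.2 to 15768). *Bcl6* and *Pml* were higher by 4.10 ± 0.41 and 2.12 ± 0.15 (log2 ± SE, adjusted p by edgeR = 3.17e-09, 3.59e-06, 1.49e-05 and 1.11e-06, in the order *Ctsc*, *Prdm1*, *Bcl6*, *Pml*). In URE-AML against Hox-URE 4 were higher, of which *Cybb* had 1, 1 and 2 counts against 0, and 4 were lower, with 20.3% and 22.4% of all genes and a median of -0.14, or 0.13 with genes at 0 in a line set at their bounds, so the sign of the median depends on that choice. *Bcl6* was higher by 2.94 ± 0.38, and *Ctsc* and *Ccr2* lower by -8.58 ± 0.24 and -5.95 ± 0.20 (log2 ± SE, adjusted p by edgeR = 9.47e-05, 3.07e-09 and 7.89e-09).

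Monocyte and macrophage markers are given beside *Irf5* and *Irf8*. Of 8 such markers, 7 were tested, and 5 were called lower and 1, *Ccr2*, higher in Hox-URE against Hox-WT, with 15.9% and 21.3% of all genes. The comparison of URE-AML with Hox-WT, in which *Irf8* had -0.84 and was called without URE-AML library 1 only, had 4 lower and 1, *Cd14*, higher, with 20.2% and 23% of all genes. Between URE-AML and Hox-URE, where *Irf8* was higher, 2 of the 7 were called (28.6%, against 42.7% of all genes), *Cd14* higher and *Ccr2* lower. Their summed level was 346 to 384 CPM in Hox-WT, 846 to 946 in Hox-URE, most of it *Ccr2*, and 121 to 326 in URE-AML. *Csf1r* and *Fcgr1* were at 0 in Hox-URE, and *Ly86*, *Ms4a7* and *Fcgr1* in URE-AML. *Csf1r*, *Ly86*, *Ccr2* and *Cx3cr1* are in both this list and the target list, and the part of these markers in the *Irf5* and *Irf8* values was not tested.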

How the data were processed

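Stranded poly-A libraries, 3 per line, were read from 1 table in which the authors deposited estimated counts per gene as whole numbers, made with salmon on GRCm38 and summed to genes, not scaled to library size. The transcriptome release and any length scaling were not given in the sources used here, and shifts between isoforms of unequal length could then affect gene counts. Lines came from the sample labels, and all columns were used. Total counts per library were 20331064 to 28588718.

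All 9 libraries entered 1 fit in edgeR 4.0.16 (R 4.3.3, TMM factors of 0.938 to 1.04, filterByExpr with a minimum count of 10, line as the only factor). Quasi-likelihood F tests (two-sided) covered 13082 genes, with Benjamini-Hochberg adjustment across all of them, and the study's thresholds of 0.05 and 1.5-fold were used. The SE was taken as the size of the log2 value over the root of F. Folds against a line at 0 use a floor of 3 counts per library, and ratios with 1 to 3 counts have an exact binomial 95% interval, which covers counting error only. No pair of libraries of a line was alike within sampling noise (chi-square per degree of freedom 18.1 to 99.8). The code was tested on simulated data.

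The members and the gene lists were chosen with earlier results of these data known. Named are the 8 members, the called genes with the largest change in each list, further genes of a list by their level, and the 5 genes most like *Irf4* and *Irf8*. *Hoxb8*, *Tnpo3*, *Bcl2l12*, *Rnf31*, *Dusp22*, *Exoc2*, *Cox4i1* and *Kcp* are named outside that rule, after their values were seen, and *Stat2* as a partner of *Irf9*. Some genes of the lists are counted but not reported by name here. Gene positions and exon lengths came from GENCODE M21, and promoter sequences from RefSeq (GRCm38.p6).

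Alternatives were DESeq2 size factors in edgeR, upper-quartile scaling, library size only, no filter, a filter of 10 counts in each of the libraries, fits of the 6 libraries of a comparison, blocking by replicate number (for ratios added after seeing the data), DESeq2 1.42.0 in place of edgeR, calls by adjusted p alone, a glmTreat test of a change over 1.5-fold, each library left out, an offset of 1 count in ratios, and other gene lengths. Figures were drawn with matplotlib 3.10.9.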

Additional observations from a re-analysis of the deposited data

How the results depend on the processing

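The number of IRF genes called, 3, 3 and 4 in Hox-URE against Hox-WT, URE-AML against Hox-WT and URE-AML against Hox-URE, stayed within 1.5 times in 17, 18 and 18 of 19 alternatives. It was 1, 1 and 2 when 10 counts were asked of every library, a filter that takes out *Irf4*, *Irf5* and *Irf8*. It was 5 in the first comparison with no fold change threshold, which adds *Irf1* and *Irf3*. Leaving out 1 library gave 3 to 4, 3 to 4, and 4 in each case. Leaving out 1 library, the differences of URE-AML from Hox-WT and Hox-URE in the *Irf8* to *Irf4* log2 ratio ran from -9.94 to -9.21 and from -4.42 to -3.68, and those in the *Irf1* to *Irf2* ratio, over the 3 comparisons, from -0.31 to -0.03, 0.38 to 0.65 and 0.54 to 0.83. With an offset of 1 count the *Irf8* to *Irf4* differences were -8.56 and -3.19.

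The lists moved as well. With 10 counts in every library, the called target genes fell from 9, 9 and 8 to 3 in each comparison, the interferon-stimulated genes to 9 and 11 in the comparisons of URE-AML with Hox-WT and Hox-URE, and the partners to 0 in both comparisons with Hox-WT. Without a fold change threshold, the sensors rose from 8 to 13 in Hox-URE against Hox-WT, the partners from 2 and 1 to 5 and 6 against Hox-WT, and the receptor genes from 5 to 8 in URE-AML against Hox-URE. Tested against 1.5-fold, Hox-URE against Hox-WT had 5 sensors and 7 interferon-stimulated genes called, against 8 and 15, and URE-AML against Hox-URE 1 partner. Partners in URE-AML against Hox-WT were 2 with upper-quartile scaling or no filter.

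Among the IRF genes, only log2 fold changes that were never called changed sign. *Irf2* in URE-AML against Hox-WT was -0.031 with upper-quartile scaling and -0.11 to 0.062 with a library left out. *Irf7* ran from -0.10 to 0.65 in Hox-URE against Hox-WT and from -0.017 to 0.73 in URE-AML against Hox-URE with a library left out.

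The replicate number as a block gave 3, 3 and 4 called IRF genes and changed no call of a member. The ratios were also taken by library number, after seeing the data. The mean differences are then equal to the unpaired ones by arithmetic, so this could not move them. In each comparison all 3 pairs had the same sign (exact sign-flip p = 0.25, the smallest possible). Deviations of same-numbered libraries correlated by 0.01 to 0.27, with 2 of 9 pairs over 0.1. The best match in another line had the same number in 17 of 18 cases, so same-numbered libraries shared part of their deviations. No source states what a number marks, so the main tests did not use the numbers as pairs. The spread between libraries in those tests includes that shared part. Low counts limit *Irf7* and the *Irf5* and *Irf8* levels in Hox-URE.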

Other observations

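The genes next to the 3 members that differed most were looked at after their values were seen. *Dusp22*, a phosphatase gene 37995 bases before *Irf4* on the same strand, had 13, 9 and 7 counts in URE-AML libraries 1 to 3, 1, 0 and 0 in Hox-WT and 0 in each Hox-URE library. *Exoc2*, 46943 bases after *Irf4* on the other strand, was transcribed in all lines, with mean levels of 46.9 ± 1.93 CPM for Hox-WT, 58.2 ± 2.90 for Hox-URE and 65.7 ± 1.73 for URE-AML (SD, n = 3 each). So the counts of *Irf4* and *Dusp22* lay mainly in URE-AML, and those of *Exoc2* did not. *Cox4i1*, a respiratory chain gene 62151 bases before *Irf8*, had mean levels of 459 ± 66.2, 478 ± 64.3 and 424 ± 21.4 CPM in the same order of lines (SD, n = 3 each), without the low Hox-URE level of *Irf8*. *Kcp*, 18673 bases before *Irf5*, had at most 5 counts in any library.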
